A study of Homo sapiens with 18 samples.

Results

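The transcriptome of OVCAR3 cells that had been given human IgG without a chosen antigen was compared with that of untreated OVCAR3 cells, to ask how far an antibody that is not IgA alters these cells. OVCAR3 is an established, adherent line of high-grade serous ovarian carcinoma, so that each group is drawn from 1 line. The comparison used 6 of the 18 libraries of the study: 3 titled IgG_Coated, from cells kept with natural human IgG at 0.5 µg/ml for 24 h, and 3 titled Untreated, from cells kept without antibody (n = 3 in each group, all in RPMI medium with fetal bovine serum). The sample records and the methods give 24 h, whereas a description of a results table in the same study gives a shorter incubation for this experiment. All 17537 genes that passed a filter on low counts were tested. Another 38228 were not, and 23301 of these had no count in any of the 6 libraries. The study describes the replicates as experiments, while the sample records do not say what same-numbered libraries share. P-values and intervals measure the spread between these libraries.

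IgG is the main antibody of blood. In epithelial cells it is bound after uptake by the neonatal Fc receptor, a pair of FCGRT and B2M that protects IgG from lysosomes and carries it across the cell, and in the cytosol by TRIM21. The classical Fcγ receptors that turn bound IgG into a signal belong mainly to leukocytes. The polymeric immunoglobulin receptor PIGR carries polymeric IgA and IgM, not IgG, across epithelia, and IgG stands here as the comparison antibody for IgA.

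Libraries held between 30584639 and 42371474 counts, and from 17136 to 18031 genes had at least 10 counts. Mitochondrially encoded genes took 7.34% of the counts on average with IgG and 7.66% without (exact permutation test, two-sided, p = 0.5). The corresponding shares of ribosomal protein genes were 4.69% and 4.80% (exact permutation test, p = 0.4), and the number of genes detected gave p = 0.5 in the same test. With 3 libraries against 3 this exact permutation test cannot go below p = 0.1, and over the 3 tests each adjusted p was 0.5. IgG replicate 3 stood apart from the other libraries of its group. Its root mean square difference in log2 depth-scaled counts from IgG replicates 1 and 2 was 0.54 and 0.48, whereas these 2 differed from each other by 0.38, and its nearest library was untreated replicate 3 at 0.42. Pairs of untreated libraries differed by 0.48 to 0.50, and pairs across the groups by 0.39 to 0.56.

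No gene was called. At a Benjamini-Hochberg adjusted p under 0.05 in the quasi-likelihood test of edgeR, 0 genes (0%) were higher and 0 (0%) lower with IgG, and the smallest adjusted p was 1.00. Before adjustment, 338 genes (1.93% of those tested) had a p under 0.05. Of these 134 (0.764%) were higher with IgG and 204 (1.16%) lower. The share did not exceed the 0.05 that this threshold admits when no gene changes. DESeq2 and limma-voom likewise called 0 genes, with 332 and 370 genes at an unadjusted p under 0.05. The split by direction depended on the scaling. By library size alone, 204 genes were higher and 123 lower at that p, and the middle gene of the table had a log2 fold change of 0.03 in place of 0.00. Without IgG replicate 3 the number at an unadjusted p under 0.05 was 1042 and without untreated replicate 3 it was 730, with 0 genes called in either case. Without the filter on low counts, in a fit of 32464 genes, edgeR called 2 genes higher (THBS1 and AXL) and 5 lower (SNORA22, RNY1, RPL37A, SNORA76 and EGR1), whose values are given below. With the replicate number as a block in the fit, edgeR called 5 genes lower and 0 higher, which are named in the closing section.

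Because an absent call does not show that a gene was unaffected, each gene was also given a 95% interval for its log2 fold change and was tested for lying within a margin. A gene was taken as held within 2-fold, or within 1.5-fold, when paired one-sided tests placed its change inside that margin in both directions at an adjusted p under 0.05. By this rule 14481 genes (82.6%) were held within 2-fold and 11808 (67.3%) within 1.5-fold. These shares apply to genes that passed the filter, and in a fit of all 32464 genes with a count they were 43.7% and 36.1%. The median absolute log2 fold change was 0.08, and the median half-width of the interval was 0.29 on the log2 scale. The outer bound, that is the larger fold that the interval of a gene still contains in either direction, had a median of 1.30-fold and a 95th percentile of 3.45-fold. The 3 IgG libraries lay above all 3 untreated libraries for 575 genes (3.28%) and below them for 614 (3.5%). If the group labels made no difference, a gene would be separated in either direction with a probability of 0.1.

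**Figure D1:**
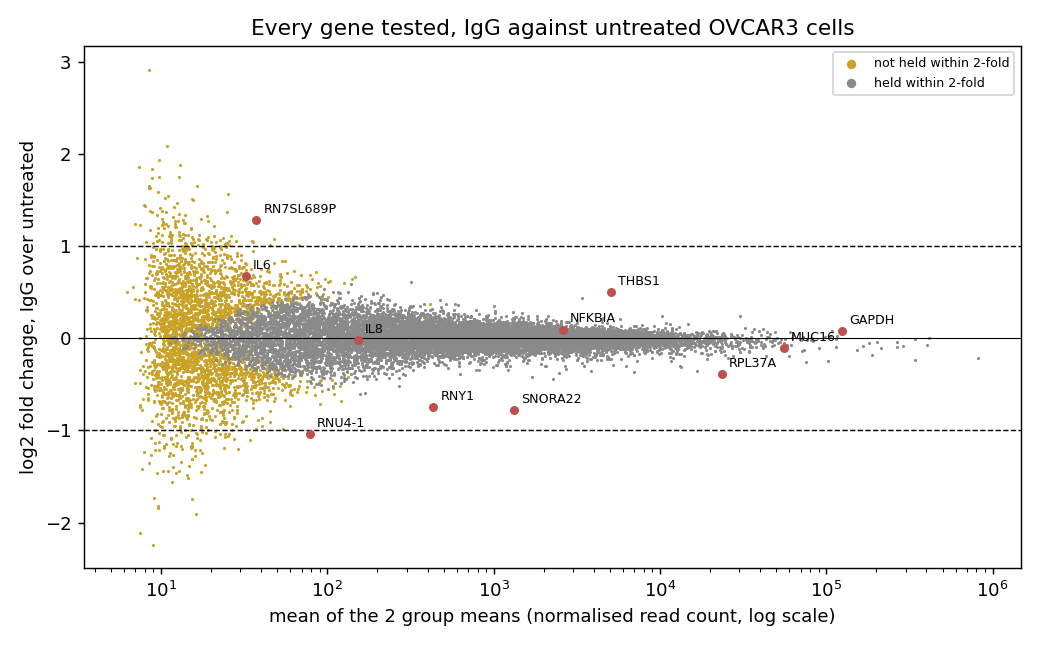
Log2 fold change of IgG over untreated cells (vertical) against the mean normalised read count on a log axis (horizontal) for the 17537 genes tested, 1 point a gene. Dashed lines mark a 2-fold difference, grey points are the 14481 genes held within 2-fold, and red points are named genes. The yellow points, not held, lie mostly at low counts on the left, with 92.3% of them under 50 in both groups.

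The share of genes that could be held went with their level. Normalised read counts (counts scaled to a common effective library size) are used throughout, and levels are compared between groups, not between genes. Of 13829 genes with a mean of at least 50 normalised counts in a group, 13593 (98.3%) were held within 2-fold and 11808 (85.4%) within 1.5-fold. Levels below are those of the group with the larger mean. Between 10 and 50 counts, 24.5% of 3620 genes were held within 2-fold and none within 1.5-fold. Between 50 and 200 counts the shares were 91.5% and 35.5%, and between 200 and 1000 they were 99.9% and 94.8%. Above 5000 counts, 99.9% of 1453 genes were held within 2-fold and 99.5% within 1.5-fold. The 3056 genes that were not held within 2-fold had a median of 17.2 normalised counts, and 92.3% of them had under 50 in both groups. The other 236 had a mean of at least 50 in a group and include THBS1, SNORA22 and RNY1, which are described below.

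**Figure D2:**
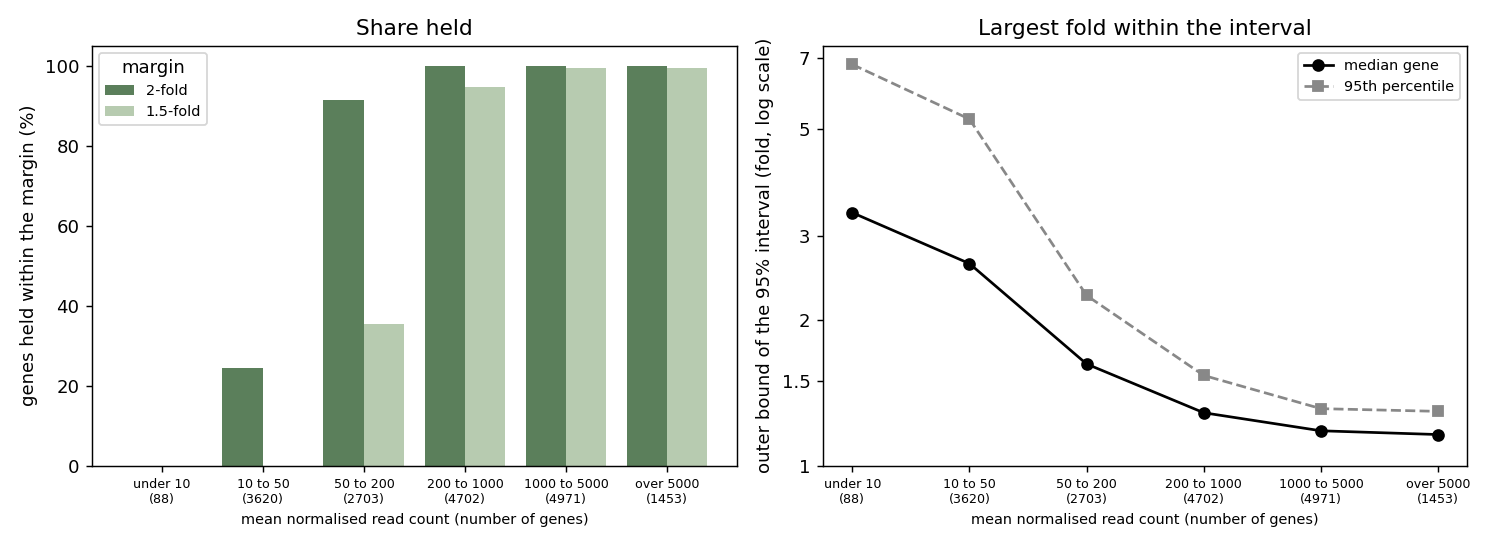
Left, percentage of genes held within 2-fold (dark bars) and 1.5-fold (light bars) by mean normalised read count, taken in the group with the larger mean. Right, outer bound of the 95% interval in fold on a log axis, for the median gene and the 95th percentile of each level. The median outer bound was 2.63-fold at 10 to 50 counts and 1.16-fold above 5000.

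Few abundant genes had a large estimated change. Among the 13829 genes with at least 50 counts, 5 had an estimate over 2-fold and 62 one over 1.5-fold in either direction. Above 5000 counts the largest estimate was that of THBS1, which encodes the matrix glycoprotein thrombospondin 1, at a log2 fold change of 0.50 ± 0.30 (SE) with an interval from -0.15 to 1.15. THBS1 stood at 9522, 5031 and 3186 normalised counts in IgG replicates 1 to 3 and at 3876, 5335 and 3356 in the untreated ones. The groups overlapped and 1 IgG library was high, and without IgG replicate 1 the estimate was -0.03. AXL, a receptor tyrosine kinase, had the same arrangement, with 5895, 3711 and 2071 counts against 2813, 3693 and 2116. A search for genes near absent from 1 group, with at least 10 raw counts in each of its libraries and at most 3 in each library of the other, found 1 gene with IgG and 0 without. This was the uncharacterised transcript RP11-812I20.2, at 10, 10 and 10 raw counts against 3, 3 and 2, which was too low to be tested.

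The genes that bind antibodies were examined first. Of 16 antibody receptors and their partners, 7 passed the filter, 0 were called and 5 were held within 2-fold, with a median log2 fold change of 0.01 against 0.00 over all genes. FCGRT, the heavy chain of the neonatal Fc receptor, had 203, 225 and 296 normalised counts with IgG and 248, 198 and 272 without. The groups overlapped, the log2 fold change was 0.01 ± 0.18 (SE), and the interval from -0.39 to 0.40 corresponds to a fold between 0.766 and 1.32. The sign of so small an estimate was not stable, and it was negative in limma-voom and without IgG replicate 3 or untreated replicate 2. B2M, the light chain of that receptor and of MHC class I, had 9013, 10119.9 and 9507 counts with IgG and 10037, 9669 and 9703 without, with an interval from -0.19 to 0.11. TRIM21, the cytosolic receptor for the Fc part of antibodies, had 239, 256 and 215 counts against 279, 278 and 221, and was held within 1.5-fold. TFRC, the transferrin receptor, which can also bind polymeric IgA, averaged 13838 counts with IgG and 13784 without.

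PIGR was scarce in all 6 libraries. It had 23.1, 23.6 and 41.5 normalised counts with IgG and 38.1, 35.4 and 23.5 without, and its log2 fold change of -0.14 ± 0.39 (SE) had an interval that corresponds to a fold between 0.5 and 1.65. It was held within 2-fold but not within 1.5-fold. FCGR2A, an activating Fcγ receptor of myeloid cells, had 16.1, 22.6 and 36.8 counts with IgG and 3.36, 21.8 and 24.4 without, and a change of up to 3.63-fold lay within its interval. ASGR1, a hepatic receptor for desialylated glycoproteins, had the largest estimate of the list at a log2 fold change of 0.73 ± 0.49 (SE), from 15.1, 22.6 and 23.7 counts against 10.1, 8.17 and 18.3. Both remained too low to be bounded. The other 9 members were not tested. FCGR1A, FCGR1B and FCAR had no count in any library, and FCAMR, FCGR2B, FCGR2C, FCGR3A, FCGR3B and FCER1G had at most 4 in any.

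Endocytic sorting genes move receptors and their cargo between early, recycling and late endosomes. All 26 members of the list of endocytic and transcytotic sorting genes were tested and all 26 were held within 1.5-fold. The share was 67.3% over all genes, but no member was scarce, the lowest group mean being 583 counts for STX12 in untreated cells. At 200 to 1000 counts 94.8% of genes were held within 1.5-fold, and at 1000 to 5000 counts 99.5%, so the list stood near the share for its level. The list median was -0.02 and its largest estimate was that of RAB11FIP5, an effector of recycling endosomes, at 0.26 ± 0.15 (SE). RAB5A of early endosomes averaged 4100 counts with IgG and 4264 without. RAB11A of recycling endosomes averaged 7577 and 8179, and its interval ran from -0.26 to 0.04. Of 18 genes that relay Fc receptor signals, 14 were tested, among them SYK and LYN, and all 14 were held within 1.5-fold. PLCG2, a phospholipase of that pathway, had the largest estimate, at 508, 423 and 407 counts against 355, 352 and 426. The members not tested, BTK, INPP5D, LAT and LCP2, had at most 6 counts in any library. Other members were expressed, with VAV1, PTPN6 and PIK3CD averaging 800, 596 and 3926 normalised counts with IgG. Without antibody they averaged 821, 633 and 4087.

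Complement and its regulators gave 12 tested genes of 19, of which 11 were held within 2-fold. Complement is the plasma cascade that bound IgG can start. The list median was -0.04. SERPING1, the inhibitor of the first complement component, had 25.1, 22.6 and 28.5 counts with IgG and 43.6, 33.6 and 35.7 without. Its groups did not overlap, but its unadjusted p in edgeR was 0.128 and its interval ran from -1.32 to 0.19. C1QA, C1QB and C1QC, which form the IgG-binding first component, had no count in any library.

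**Figure D3:**
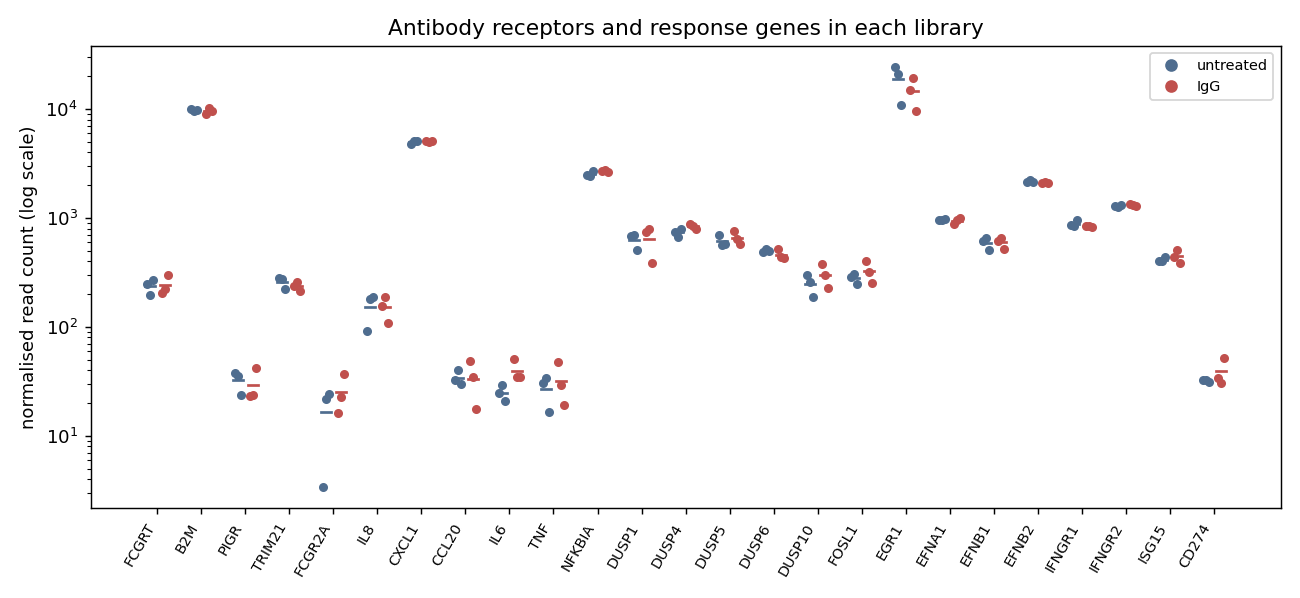
Normalised read counts on a log axis in each of the 6 libraries for antibody receptors and response genes, with blue points for untreated cells, red points for IgG and bars for group means. The groups overlapped for 22 of the 25 genes, and did not for IL6, DUSP4 and EFNB2. Over all genes tested they did not overlap for 3.28% on the higher side and 3.5% on the lower.

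Genes of inflammation were next. NF-kB is the transcription factor that Toll-like receptors and inflammatory cytokines activate, and its targets include chemokines as well as its own inhibitors. Of 33 NF-kB targets and cytokines, 26 were tested, 0 were called, 22 were held within 2-fold and 18 within 1.5-fold, and the median log2 fold change was 0.02. None had an unadjusted p under 0.05. NFKBIA, the inhibitor of NF-kB that its own target induces, had 2672, 2756 and 2649 counts with IgG and 2465, 2418 and 2688 without, and its interval from -0.07 to 0.25 left at most a 1.19-fold change. CXCL1, a chemokine for neutrophils, had 5104, 4942 and 5108 counts against 4736, 5044 and 5129, an interval from -0.12 to 0.17. For both genes the groups overlapped.

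IL8, the listed symbol of the neutrophil chemokine CXCL8, had 157, 189 and 109 counts with IgG and 91.8, 179 and 189.7 without. Its log2 fold change was -0.02 ± 0.28 (SE) and its interval from -0.62 to 0.58, and each group held both a high and a low library. CCL20, a chemokine for lymphocytes and dendritic cells, had 48.3, 34.4 and 17.8 counts against 32.5, 40.0 and 29.6, and was held within 2-fold only. TNF had 47.3, 29.5 and 19.0 counts against 30.2, 33.6 and 16.5, and 2.35-fold lay within its interval. IL6 was the tested member with the largest estimate, with 50.3, 34.4 and 34.4 counts with IgG and 24.6, 29.1 and 20.9 without. Its groups did not overlap, the log2 fold change was 0.67 ± 0.36 (SE), the interval ran from -0.11 to 1.46, and the unadjusted p in edgeR was 0.0846. IL1B, CCL2, CSF2, CSF3 and CXCL5 had at most 5 counts in any library and were not tested.

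Toll-like receptors and their adaptors gave 15 tested genes of 18, of which 12 were held within 2-fold and 0 had an unadjusted p under 0.05. MYD88, the adaptor shared by most of these receptors, averaged 405 counts with IgG and 396 without, with an interval from -0.23 to 0.29. TLR4, the receptor for endotoxin, was not tested, with 13, 7 and 0 raw counts with IgG and 8, 10 and 1 without, and its partner LY96 had at most 4. TLR9 had the largest estimate of the list, at 12.1, 26.5 and 41.5 counts against 17.9, 11.8 and 13.9, and up to 3.92-fold lay within its interval.

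MAP kinase phosphatases switch off ERK and related kinases, and most are themselves induced by ERK activity. Of 10 such genes, 9 were tested, 0 were called and 8 were held within 2-fold. Their median log2 fold change of 0.11 was the highest of the 28 lists, and 1 gene (11.1%, beside 3.28% of all genes) lay above in all 3 IgG libraries. That gene was DUSP4, with 878, 846 and 788 counts with IgG and 746, 676 and 786 without, a log2 fold change of 0.19 ± 0.10 (SE) and an interval from -0.02 to 0.40. DUSP5 had 751, 645 and 579 counts against 704, 559 and 581, and at most 1.30-fold lay within its interval. DUSP6 had 515, 437 and 429 counts against 485, 518 and 499. DUSP1 had 738, 784 and 389 counts against 678, 692 and 512, so that replicate 3 was the low library in both groups. DUSP10 had 378, 299.5 and 226 counts against 299.9, 259 and 188, again with replicate 3 lowest in both, and its estimate of 0.28 ± 0.21 (SE) had an interval from -0.17 to 0.74. DUSP2 had at most 4 counts in any library.

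All 21 immediate-early and ERK output genes were tested, 0 were called, 20 were held within 2-fold, and the median was 0.01. EGR1, an early growth response transcription factor, had 14849.5, 19299 and 9509.7 counts with IgG and 24347, 20822 and 10880 without. The spread within each group exceeded the difference between them, with replicate 3 low in both, and the log2 fold change was -0.36 ± 0.27 (SE). FOSL1, a subunit of AP-1, had 401, 320.1 and 251 counts against 289, 306 and 249 and an interval from -0.17 to 0.59. EGR3 had the largest estimate, at 34.2, 51.1 and 23.7 counts against 21.3, 24.5 and 27.0.

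Ephrins are membrane-bound ligands of the Eph receptor kinases. The 8 ephrin genes were all tested and all held within 2-fold, 7 of them within 1.5-fold, with a median of -0.03. EFNB2 had 2087, 2121 and 2103 counts with IgG and 2122, 2236 and 2134 without. Although its groups did not overlap, the log2 fold change was only -0.04 ± 0.07 (SE) and the interval from -0.19 to 0.11 left at most 1.14-fold. EFNA1 had 872, 967 and 992 counts against 948, 949.8 and 979. EFNB1 had 621, 653 and 516 counts against 613, 658 and 510. EFNA2, with means of 41.6 and 34.2 counts, had the widest bound of the list, at 2.08-fold.

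Interferons are the cytokines of antiviral defence. Of 40 type I interferon genes 39 were tested, 0 were called, 37 were held within 2-fold and 31 within 1.5-fold, and the median was -0.03. ISG15, a ubiquitin-like protein, averaged 444 ± 58.2 counts (SD, n = 3) with IgG and 412 ± 18.7 without. BST2, which tethers enveloped viruses to the cell, was the 1 member with an unadjusted p under 0.05 (2.56% of the list, beside 1.93% of all genes). Its log2 fold change was -0.25, with an interval from -0.47 to -0.03. Of 20 genes of interferon-γ signalling 17 were tested and 16 held within 2-fold. IFNGR1 had 842, 850.4 and 824 counts with IgG and 864, 839.9 and 950.3 without, and IFNGR2 had 1335, 1328 and 1276 against 1293, 1256 and 1305. The intervals of these receptor chains, from -0.27 to 0.12 and from -0.13 to 0.20, left room for at most 1.21-fold and 1.15-fold. The guanylate-binding proteins GBP2 and GBP4 (11.8% of the members tested, beside 1.93% of all genes) had unadjusted p-values of 0.0263 and 0.0449 in edgeR. Their log2 fold changes were -0.22 and -0.90. GBP4 had 19.1, 24.6 and 21.3 counts with IgG and 39.2, 57.2 and 25.2 without, with no overlap. All 3 IgG libraries lay below for 3 members (GBP2, GBP4 and GBP5), 17.6% of the list beside 3.5% of all genes.

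All 18 genes of MHC class I presentation were tested and held within 2-fold, 17 of them within 1.5-fold, with a median of -0.01. HLA-B averaged 2036 and 2100 counts and HLA-C 9081 and 9371. PSMB10, an immunoproteasome subunit, had 145, 146 and 167 counts with IgG and 241, 197 and 171 without. Its groups did not overlap, its interval ran from -0.79 to -0.02, and its unadjusted p in edgeR was 0.0388. Of 21 ligands of T and NK cells and death receptors, 18 were tested and 17 held within 2-fold. CD274, which encodes the checkpoint ligand PD-L1, had 34.2, 30.4 and 52.2 counts against 32.5, 32.7 and 31.3, an interval from -0.49 to 1.03. RAET1E, a ligand of the NK receptor NKG2D, had the largest estimate of any list member, -1.03 ± 0.73 (SE), from 15.1, 14.7 and 1.19 counts against 41.4, 12.7 and 12.2.

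Stress pathways were examined next. None of the 16 heat shock genes, 14 genes of the integrated stress response, 15 of the unfolded protein response, 12 NRF2 targets and metallothioneins, and 16 of hypoxia and glycolysis that were tested had an unadjusted p under 0.05. All 15 unfolded protein response genes were held within 1.5-fold, with DNAJC3, a chaperone of the endoplasmic reticulum, the largest at 0.11 ± 0.09 (SE). TRIB3, a pseudokinase induced by amino acid shortage, had 1054, 1115 and 2159 counts with IgG and 1139, 933 and 1608 without, and MT2A, a metallothionein, had 2295, 1853 and 1058 against 1612, 1851 and 945. In both genes replicate 3 was the outlying library of each group. HSPA6, a heat shock protein that unstressed cells hardly express, had 17.1, 13.7 and 0 counts against 11.2, 12.7 and 13.1 and remained unbounded, with 3.69-fold within its interval. ANKRD37, a hypoxia-induced gene, had 38.2, 32.4 and 27.3 counts against 54.8, 29.1 and 51.3. Of the 15 BCL2 family genes tested, 13 were held within 2-fold, and HRK, a promoter of apoptosis, had 32.2, 58.9 and 71.1 counts against 113, 39.0 and 86.2.

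Genes of division report on proliferation. All 20 DNA replication genes and all 20 mitosis genes were held within 1.5-fold, with medians of 0.02 and -0.01. MKI67, a marker of dividing cells, had 35814, 35994 and 31200.4 counts with IgG and 33652, 36591 and 34423 without. GINS2 of the replicative helicase had the largest estimate among replication genes at 0.15 ± 0.12 (SE), and the kinesin KIF20A among mitosis genes at 0.12 ± 0.08 (SE). Of 19 cholesterol and fatty acid synthesis genes 18 were held within 1.5-fold. All 18 reference genes were held within 1.5-fold. GAPDH, the glycolytic enzyme, had 132838, 134423 and 114161 counts against 122252, 119413 and 120115, and POLR2A, the large subunit of RNA polymerase II, had the largest estimate at -0.17 ± 0.09 (SE).

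Genes that mark serous carcinoma were abundant in both groups. Of 20 identity genes 19 were tested, all 19 were held within 2-fold and 17 within 1.5-fold, and CD24 was not among the listed symbols. PAX8, the lineage transcription factor, had 20555, 20600.2 and 21246 counts with IgG and 18869.6, 19267 and 22629 without. MUC16, which encodes the CA125 antigen, had 42187, 57196 and 61331 counts against 46123, 39443 and 87604, and MUC1 had 417, 640.3 and 633 against 633, 718 and 687. BDNF and TSPAN7, which encode the antigens of other antibodies in the study, had intervals from -0.25 to 0.51 and from -0.60 to 1.01. Of 20 markers of other cell types 6 were tested, and 0 had an unadjusted p under 0.05. The leukocyte genes CD3E, MS4A1 and ITGAM had at most 2 counts in any library, and PTPRC averaged 20.2 and 21.3 normalised counts. COL1A1 and COL1A2, collagen genes that are also expressed by some carcinoma lines, averaged 702 and 1636 counts with IgG and 768 and 1719 without. VWF of endothelium had 34.2, 56.0 and 55.7 counts against 29.1, 34.5 and 45.3.

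**Figure D4:**
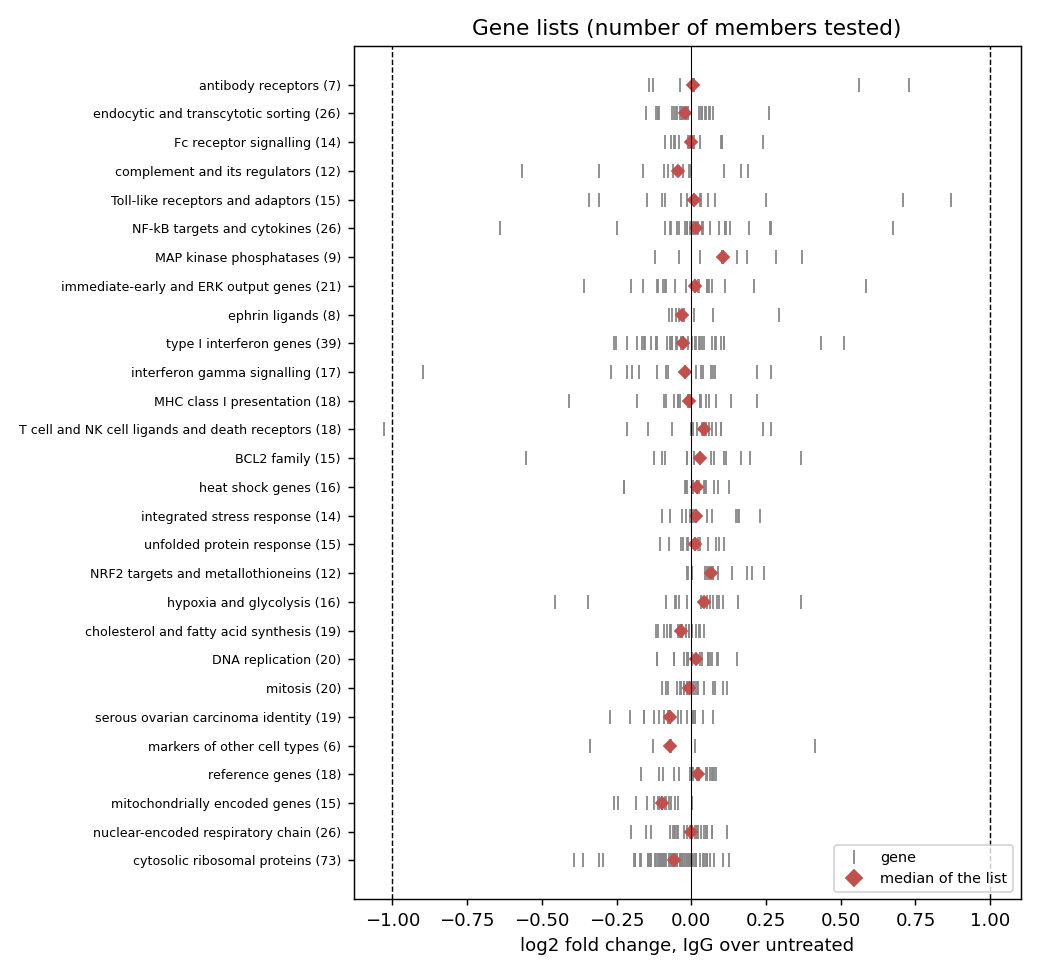
Log2 fold change of each tested member of 28 gene lists (grey ticks) with the median of the list (red diamonds), and dashed lines at a 2-fold difference. Medians ran from -0.10 for mitochondrially encoded genes to 0.11 for MAP kinase phosphatases, and the 1 member past a dashed line, at -1.03, is RAET1E.

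Across the 28 lists, 525 of 584 genes were tested, 0 were called, 500 were held within 2-fold and 458 within 1.5-fold. An unadjusted p under 0.05 was found for 14 of the 525. Of these, 7 were cytosolic ribosomal proteins, of which 73 of 74 were tested. Their share of 9.59% stood beside 1.93% over all genes, and 14 of the 73 (19.2%) were below the untreated libraries in all 3 IgG libraries, beside 3.5% over all genes. In all 7 the estimate was lower with IgG. The median log2 fold change of the list was -0.06, and 72 of the 73 were held within 1.5-fold. The 7 were RPL11, RPL23A, RPL37, RPL37A, RPL38, RPS25 and RPS29. By library size alone the list median was -0.03, and 5 members had an unadjusted p under 0.05. The count depended on single libraries, with 17 members (15 of them lower) without IgG replicate 3. It was 3 when IgG replicate 2 was left out, and 4 when IgG replicate 1 or untreated replicate 2 was. With the IgA libraries in the fit it was 3, and the median stayed below 0 each time. Close copies in the genome can take up or split reads of ribosomal protein genes.

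Of the 15 mitochondrially encoded genes 14 were below 0, and all 15 were held within 1.5-fold. Their median of -0.10 was the lowest of the lists, and it stayed between -0.19 and -0.03 under the alternatives that kept these genes. MT-RNR2, the large mitochondrial ribosomal RNA, had 69624, 63655 and 74352 counts with IgG and 74853, 84758 and 88784 without, with no overlap and a log2 fold change of -0.26 ± 0.09 (SE). The 26 nuclear-encoded respiratory chain genes had a median of 0.00 and were all held within 1.5-fold. NDUFB3 of complex I had the largest estimate among them, with 3702, 3854 and 3519 counts against 4163, 4415 and 4153.

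The genes with the smallest unadjusted p-values are given next, beginning with those lower with IgG. The smallest of all was that of SNORA22 (unadjusted p = 0.000897 and adjusted p = 1.00 in edgeR), a box H/ACA RNA of the class that guides pseudouridylation of ribosomal RNA. It had 1080.2, 881 and 972 counts with IgG and 2307, 1446 and 1303 without. The groups did not overlap, untreated replicate 1 was high, and the log2 fold change was -0.78 ± 0.18 (SE). Its symbol covers 4 annotated copies, and their sequences are shown because only uniquely aligned reads were counted, and copies this close can share or lose reads. The 3 copies of 134 bases are given on the transcribed strand in GRCh37, with capitals at the 17 positions where they do not all carry the same base.
SNORA22 at chr7:65220513-65220646 (+): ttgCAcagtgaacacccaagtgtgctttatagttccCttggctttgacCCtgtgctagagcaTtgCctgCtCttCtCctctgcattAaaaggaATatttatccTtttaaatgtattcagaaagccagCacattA
SNORA22 at chr7:64526377-64526510 (+): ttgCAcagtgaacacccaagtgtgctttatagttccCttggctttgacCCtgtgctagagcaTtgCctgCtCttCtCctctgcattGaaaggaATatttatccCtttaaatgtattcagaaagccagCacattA
SNORA22 at chr12:40213552-40213685 (-): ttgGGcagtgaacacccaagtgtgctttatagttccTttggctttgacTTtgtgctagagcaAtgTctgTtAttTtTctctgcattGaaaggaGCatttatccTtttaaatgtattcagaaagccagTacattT
The copies on chromosome 7 differed from each other at 2 positions (98.5% identity) and each from the copy on chromosome 12 at 16 (88.1%). The fourth copy, of 138 bases at chr7:56123058-56123195, was not compared.

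Other small RNAs were RNU4-1, a U4 spliceosomal RNA gene at chr12:120730900-120731040, and SNORA76. RNU4-1 had 48.3, 65.8 and 39.1 counts with IgG and 86.2, 121 and 109 without, a log2 fold change of -1.04 ± 0.27 (SE), and it has near-identical relatives in the genome. SNORA76, a symbol with 3 annotated copies, had 1537, 2208 and 2006 counts against 2543, 2817 and 2452, a log2 fold change of -0.44 ± 0.12 (SE). RNY1, a Y RNA at chr7:148684228-148684340 that is bound by the Ro60 protein, had 322, 488 and 159 counts against 527, 708 and 403. Its groups overlapped. Genes were also grouped by RNA class after these values were seen, without a test. The 83 small nucleolar RNAs, SNORA22 and SNORA76 among them, had a median of -0.05, with 49 below and 34 above 0. Of these, 6 (7.23%, beside 1.16% of all genes) had an unadjusted p under 0.05 on the lower side and 0 on the higher. The groups did not overlap for 6 (7.23%, beside 3.5% of all genes) on the lower side and for 4 (4.82%, beside 3.28%) on the higher. In the class of RNU4-1, 38 small nuclear RNAs, 2 (5.26%) were lower and 1 (2.63%) higher at an unadjusted p under 0.05. In the class of RNY1, 25 miscellaneous RNAs, 3 (12%) were lower and 1 (4%) higher. The shares over all genes were 1.16% and 0.764%. In the class of RNY1 the groups did not overlap for 4% on the lower side and 8% on the higher.

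The remaining genes among the 10 lowest p-values on the lower side encode proteins, apart from RPL37P2, a processed copy of RPL37 that had 108, 137 and 130.4 counts against 208, 189.8 and 171. RPL37A (chr2:217363548-217443903), a protein of the large ribosomal subunit, had 18579, 20989 and 21420.3 counts with IgG and 25693, 30416 and 23936 without. Its log2 fold change was -0.39 ± 0.09 (SE) with an unadjusted p of 0.00146 in edgeR, and it was nonetheless held within 1.5-fold. BTC (betacellulin, a ligand of the EGF receptor; chr4:75669969-75719733) had 643, 751 and 759 counts against 898, 987 and 851, with a log2 fold change of -0.35 ± 0.10 (SE). PFDN5, a prefoldin subunit, had 4642, 4567 and 4835 counts against 6088, 6179.9 and 4956. MRPL33 of the mitochondrial ribosome had 3015, 3019 and 3161 against 3699, 4042 and 3334. RPS25 had 11466, 11366 and 13250.3 against 14877, 16580.3 and 13233, and the BMP antagonist NBL1 had 902, 936 and 818 against 1155, 1147 and 999. Of these, the groups overlapped only for RPS25, but the genes were chosen by small p in these same libraries, which favours genes without overlap. Over all genes tested, the groups did not overlap for 3.5% on the lower side. BTC, PFDN5, MRPL33, RPS25 and NBL1 were all held within 1.5-fold.

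**Figure D5:**
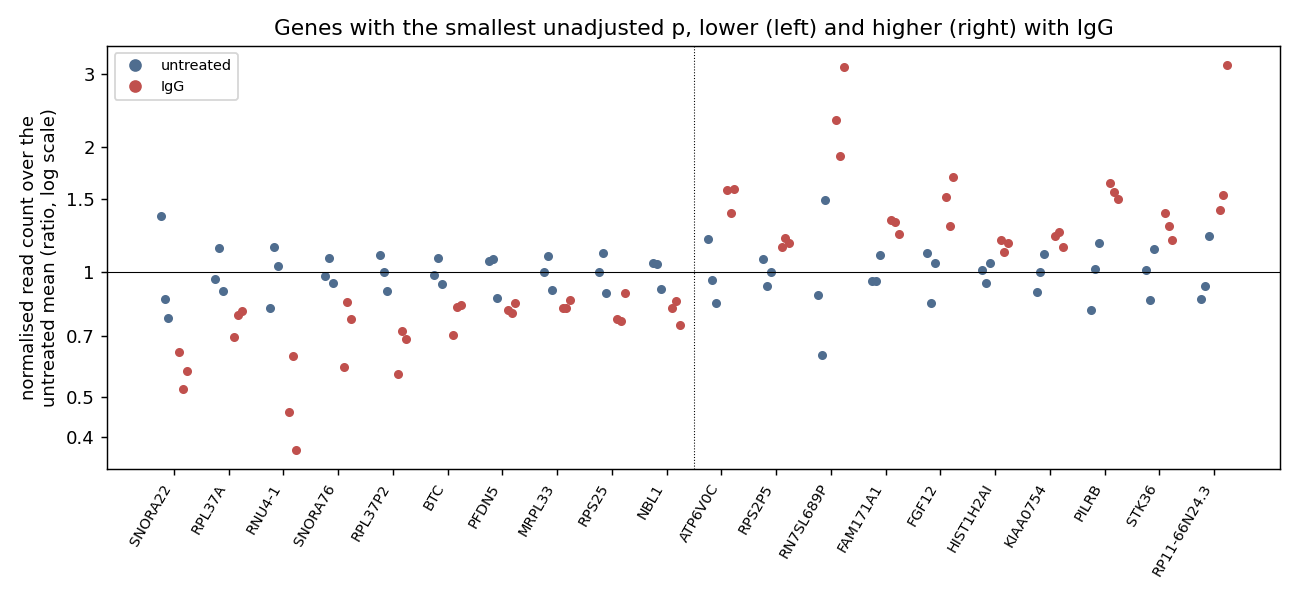
Normalised read count divided by the untreated mean (ratio, log axis) in each library for the 10 genes with the smallest unadjusted p that were lower with IgG (left of the dotted line) and the 10 that were higher (right), with at least 50 counts in a group. Blue points are untreated and red points IgG libraries, and none of the 20 genes passed the adjusted threshold.

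On the higher side the smallest p belonged to ATP6V0C (chr16:2563953-2570219), a subunit of the proton pump that acidifies endosomes and lysosomes. It had 401, 352 and 403 counts with IgG and 306, 242 and 214 without, a log2 fold change of 0.60 ± 0.15 (SE), an unadjusted p of 0.00195 in edgeR and an interval from 0.27 to 0.94. RPS2P5, a processed copy of RPS2, had 10815, 11377 and 11075 counts against 10109, 8698 and 9409, whereas RPS2 itself averaged 99393 counts with IgG and 98211 without. RN7SL689P, a copy of the signal recognition particle RNA, had 50.3, 41.2 and 67.6 counts against 19.0, 13.6 and 32.2. FAM171A1 had 445, 439 and 410.2 against 317, 316 and 365, and FGF12, an intracellular member of the FGF family, had 169, 143 and 189 against 123, 93.5 and 117. The histone gene HIST1H2AI had 4976, 4663 and 4909.6 against 4216, 3935 and 4378. KIAA0754, whose annotated span on chromosome 1 overlaps MACF1, had 1649, 1681 and 1547 against 1209, 1348 and 1486. PILRB, an immunoglobulin-like receptor, had 123, 117 and 113 against 60.4, 76.3 and 87.9, and the kinase STK36 had 622, 579 and 536 against 452, 384 and 507. RP11-66N24.3 had 62.4, 67.8 and 139.9 against 38.1, 40.9 and 54.0, with IgG replicate 3 well above the rest. In these 10 genes the groups did not overlap, but they were chosen by small p in these same libraries, which favours genes without overlap. Over all genes tested, 3.28% met that condition on the higher side.

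Protein-coding genes were also divided by the length of their transcript, a division made after these values were seen and given without a test. Of 663 protein-coding genes with at least 50 counts and a transcript under 1000 bases, 438 were below 0 and 225 above, with a median of -0.04. An unadjusted p under 0.05 was found for 33 (4.98%) on the lower side and 2 (0.302%) on the higher, beside 1.16% and 0.764% of all genes. The IgG libraries were all below for 50 (7.54%) and all above for 10 (1.51%), beside 3.5% and 3.28% of all genes. For 5119 such genes with transcripts over 4000 bases the median was 0.01, with 23 genes lower and 22 higher at that p. The libraries of both groups overlapped in this measure. The median deviation of the short messages from their own means was -0.02, 0.03 and -0.08 in IgG replicates 1 to 3 and 0.03, 0.06 and -0.02 in the untreated ones, on the log2 scale, with replicate 3 lowest in each group.

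The libraries of cells given non-specific IgA (0.5 µg/ml for 24 h, n = 3) were compared with the same untreated libraries, so that the IgG and IgA values below share their controls. In a fit of all 9 libraries IL8 had a log2 fold change of -0.02 with IgG, interval from -0.64 to 0.60, and of 6.86 with IgA. Normalised to these 9 libraries, IL8 stood at 146, 175 and 101 counts with IgG, at 85.1, 166 and 176 without antibody and at 19999, 11352 and 18769 with IgA. For CCL20 the log2 fold changes were 0.00 with IgG and 6.40 with IgA, for NFKBIA 0.09 and 2.67, for DUSP5 0.10 and 3.42, and for FOSL1 0.21 and 3.53. EFNB2 gave -0.04 and -1.17, and IFNGR1 -0.08 and 0.88. For each of these 7 genes the IgA value lay outside the interval of the IgG value, and the adjusted p in edgeR was 1.00 for IgG and at most 0.000139 for IgA. The 7 genes are part of a fixed list that was chosen with earlier results of these data known. Values with IgA are not given here for its other members, so the 7 do not show how often the antibodies differed.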

How the data were processed

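RNA of 3 IgG-treated and 3 untreated OVCAR3 samples, grouped by sample title, was analysed from raw counts per gene. The authors prepared total RNA libraries (Ovation Human FFPE kit), removed adapters with cutadapt, used STAR for alignment to GRCh37, and deposited counts of uniquely aligned reads per gene, without normalization. The methods name featureCounts, whereas the submitters' processing notes name HTSeq 0.6.1, and use of strand is not stated. Overlapping genes and close copies can therefore share or lose reads, and no molecular identifiers separate PCR copies.

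Counts were fitted with edgeR 4.0.16 in R 4.3.3 (TMM, filterByExpr, quasi-likelihood F test, two-sided, group only), on these 6 libraries. Intervals used the Wald standard error and a t distribution with 11.8 degrees of freedom. P-values were adjusted by Benjamini-Hochberg over all genes tested. Since the margin tests are one-sided, a held gene can have an interval slightly wider than the margin. Alternatives with DESeq2 1.42.0, limma 3.58.1 and other scalings, filters and libraries stand in the closing section. No 2 replicates looked like 1 library deposited again (chi-square over its degrees of freedom 7.08 to 27.2). Gene positions (GRCh37) come from GENCODE, in which 33529 of the 55765 symbols were found directly and 1926 through older names in RefSeq.

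Genes named were the 10 smallest p-values in each direction with a mean of at least 50 counts in a group, every gene called in any fit (up to 5 per direction), a fixed list of antibody receptors and response genes, and the largest change in each of 28 lists. Where another gene of a list is named, it was chosen after its values were seen. The comparison and the lists were chosen with earlier results of these data known. Libraries of the second series were not used here, and a few genes that the rule names are not reported here.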

Additional observations from a re-analysis of the deposited data

How the results depend on the processing

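Held counts stayed within 1.5 times of those reported under every alternative, from 13491 to 15502 genes at 2-fold and from 10516 to 12641 at 1.5-fold. As shares of every gene with a count they fell short of the reported ones, at 43.7% and 36.1% in edgeR and 41.6% and 33.7% in DESeq2. In a fit of every gene with a count, 2 genes were higher and 5 lower at an adjusted p under 0.05 in edgeR, and 733 had an unadjusted p under 0.05. The adjusted p there was 5.8e-10 for SNORA22, 2.41e-05 for THBS1, 0.00127 for RNY1, 0.00186 for AXL, 0.00312 for RPL37A, 0.0113 for SNORA76 and 0.033 for EGR1, and the median degrees of freedom of the fit were 129856 in place of 11.8. When the IgA libraries joined the fit, making 9, the number at an unadjusted p under 0.05 was 89. Leaving out 1 library at a time gave 229 to 1042, the highest without IgG replicate 3 (429 higher, 613 lower) and the next, 730, without untreated replicate 3, with 0 called each time. The cause was not tested. With a replicate block, 5 genes were lower (SNORA22, RNY1, SNORA76, UBALD2 and RPL37A), 0 higher, and 713 had an unadjusted p under 0.05, among them 15 ribosomal protein genes. Replicate numbers were not taken to pair the libraries, because the sample records do not say what same-numbered libraries share. The deviations of same-numbered libraries correlated at 0.06, 0.07 and 0.27, and those of differently numbered ones at -0.23 to 0.16. IgG replicate 1 correlated best with untreated replicate 2, at 0.16, and IgG replicate 3 with untreated replicate 3, at 0.27. These values do not decide whether the numbers pair the libraries.

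Of 1295 values of the 82 named genes under the alternatives, 38 had the other sign. Of 447 list medians 15 moved by more than the spread between replicates, 12 of them when a library was left out, and list medians ranged from -0.10 to 0.14 with all 6 libraries. With a library left out the range was -0.20 to 0.28, both in the integrated stress response list, without IgG replicate 3 and without untreated replicate 3. The median of immediate-early and ERK output genes was -0.06 without IgG replicate 2, and that of complement genes -0.19 without IgG replicate 3. Bounds were wider at low counts, and 24.5% of genes at 10 to 50 counts were held within 2-fold.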
